A study of Mus musculus with 2 samples.

Results

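The Hox cluster genes were taken as the protein-coding genes of GENCODE vM21 on mm10 whose symbol is Hoxa, Hoxb, Hoxc or Hoxd followed by a number. This gave 39 genes of 21938 protein-coding genes. There were 11 in the Hoxa cluster on chromosome 6, 10 in Hoxb on chromosome 11, 9 in Hoxc on chromosome 15 and 9 in Hoxd on chromosome 2. The data were DNase-seq of spleen from B6CASTF1/J mice, the F1 hybrid of C57BL/6 and CAST, all female and 36 days old, with no treatment stated. There was 1 group of 2 libraries, numbered as biological replicates 1 and 2, and no control or other tissue. Every value below thus describes spleen of this 1 group. The labels name 2 biosamples but give both the same donor entry, so the spread between libraries may in part be technical. Reads of an F1 hybrid were placed on the C57BL/6 assembly, and the alleles were not separated.

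Hox proteins are homeodomain transcription factors that give cells their position along the body axis. The genes of a cluster lie in the order in which they act from head to tail, and genes with the same number in different clusters (paralogue groups) descend from 1 ancestral gene. Polycomb complexes keep Hox genes silent and Trithorax-type MLL complexes keep them active. CTCF sites divide the clusters into domains. In blood, several Hoxa and Hoxb genes are known for high activity in stem and progenitor cells that is lost as cells mature. DNase I cuts DNA where nucleosomes are absent or displaced, so a peak marks an accessible stretch and a footprint marks a short protected stretch inside it.

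A gene was counted as having a promoter peak where a peak lay within 1 kb of an annotated start. Each library came with a shorter and a longer peak list, and the shorter was used unless stated. Replicate 1 had 42454 peaks in its shorter list and 61285 in its longer list, and replicate 2 had 60683 and 89476. The files give no read totals, so depth in reads is unknown. Peak signal is the authors' own value, in whole multiples of 0.0106 in replicate 1 and 0.00513 in replicate 2, with a tolerance of 0.01 of a step. The scale of that signal is not given in the sources used here, so signals were set against the other peaks of the same library. As a check of the tissue label, all 7 B cell markers had a promoter peak in both libraries, as did 5 of 6 T cell, 3 of 5 erythroid and 3 of 5 macrophage and monocyte markers. Of 10 stroma and mesothelium markers 1 did, Col1a1, of 5 endothelial markers 2 did, Pecam1 and Kdr, and of 8 stem and progenitor markers 4 did, Meis1, Myb, Kit and Hlf. Over all protein-coding genes the share was 53.1%, so the erythroid, macrophage and stem counts are near the background.

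Most of the sites on which the account below turns fall into 2 sequence classes, and examples of each are shown. The first class held the 7 letters AGNTGGC, where N is any base. They resemble the end of the CTCF consensus but are not that whole motif, and were chosen after these sequences had been seen. At the Hoxa7 upstream, Hoxa10 exon and Hoxb9 to Hoxb8 sites they lie within a match to a relaxed form of that consensus. They are shown with 8 bases before and 13 after, 5′ to 3′ on the strand of the match, from GRCm38.p6, with the 7 letters in capitals.
Hoxa7 upstream site (minus strand): attccaggAGATGGCagtgtggctccac
Hoxa10 exon (minus strand): ccgccacgAGATGGCgcactcccgatca
Hoxa13 3′ side (plus strand): tcaacacgAGGTGGCgcccttgatctac
Between Hoxb9 and Hoxb8 (plus strand): tggccgctAGATGGCatccttgctccat
Hoxb6 intron (minus strand): cggacggtAGATGGCagcaaactgcata
Hoxc10 start (plus strand): cagctgctAGGTGGCgctgttactccac
Between Hoxc9 and Hoxc8 (plus strand): tgaacgcgAGGTGGCgctgttgctcaat
The second class held the E box CACGTG with the CCAAT box close by. It is shown on the plus strand with both boxes in capitals. ATTGG is CCAAT read on the other strand.
Hoxa4 start: gcccCACGTGctgcgatccggCCAATggga
Hoxa7 start: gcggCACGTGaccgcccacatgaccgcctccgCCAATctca
Hoxb4 exon: ggccATTGGctcggaggatCACGTGggcc

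Few Hox promoters were accessible in spleen, and the same 6 were found in both libraries, among them Hoxa4, Hoxa7, Hoxa10, Hoxb4 and Hoxc10. That was 6 of 39 genes in replicate 1 and 6 of 39 in replicate 2, beside 53.4% of all protein-coding genes in replicate 1 and 56.9% in replicate 2. In both libraries together the share was 15.4% of Hox genes, against 21.7% of 83 other homeobox genes and 53.1% of all protein-coding genes. The 83 are a chosen list and not the whole homeobox family. The TALE genes and the Caudal and ParaHox genes were counted in lists of their own, given further below. No Hox gene had a promoter peak in 1 library only. In whole tissue, few cells with an open promoter and many cells with a weakly open one cannot be told apart.

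The longer lists added little. By them 7 Hox promoters were accessible in replicate 1 and 8 in replicate 2, beside 57.4% and 61.9% of all protein-coding genes. Hoxb5, a gene known to mark long-term stem cells of mouse bone marrow, was the 7th gene found in both libraries, which gave 17.9% of Hox genes beside 56.8% of all genes. Its peak had a signal of 0.601 in replicate 1 and 0.548 in replicate 2, both below the median of the longer list, 0.928 and 0.712. Hoxc5 had one in replicate 2 alone, with a signal of 0.349. A run of bases at a false discovery rate (FDR) of at most 0.001 in the track of cut rates lay in the promoter of the same number of genes, 6 in each library, beside 54.1% and 57.6% of all genes. A run listed at any FDR under 0.05 lay in 7 Hox promoters in replicate 1 and 8 in replicate 2, beside 58.4% and 63% of all genes.

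The other 31 genes had no promoter peak in either list of either library, and no listed run in the promoter. In Hoxa they included Hoxa3, Hoxa5, Hoxa9, Hoxa11 and Hoxa13. In Hoxb they were Hoxb1, Hoxb2, Hoxb3, Hoxb6, Hoxb7, Hoxb8, Hoxb9 and Hoxb13. In Hoxc they were Hoxc4, Hoxc6, Hoxc8, Hoxc9, Hoxc11, Hoxc12 and Hoxc13. In Hoxd they were all 9 members: Hoxd1, Hoxd3, Hoxd4, Hoxd8, Hoxd9, Hoxd10, Hoxd11, Hoxd12 and Hoxd13.

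Promoters rich in CpG are usually accessible in any tissue, and many Hox promoters are of that kind. CpG content was measured over 500 bases to either side of the start of the gene record. A start was called CpG-rich at an observed to expected CpG ratio of at least 0.6 and a GC content of at least 50%. Promoter peaks were instead counted at the starts of the basic gene set. For some genes, Hoxa7, Hoxa9, Hoxc5, Hoxc6 and Hoxd4 among them, the record start lies several kb from these. There the CpG class may not be that of the promoter tested. Of the 39 genes, 24 had a CpG-rich record start. A promoter peak in both libraries was found for 3 of these, Hoxa4 and Hoxa7 among them. That share was 12.5%, against 22.2% of 63 CpG-rich starts in the chosen list of other homeobox genes and 84.2% of 9738 CpG-rich starts in all. The remaining 21 Hox genes with a CpG-rich record start had no promoter peak in either shorter list. By paralogue group, 3 of 12 genes of groups 1 to 4 were accessible in both libraries, 1 of 11 of groups 5 to 8 and 2 of 16 of groups 9 to 13.

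**Figure D1:**
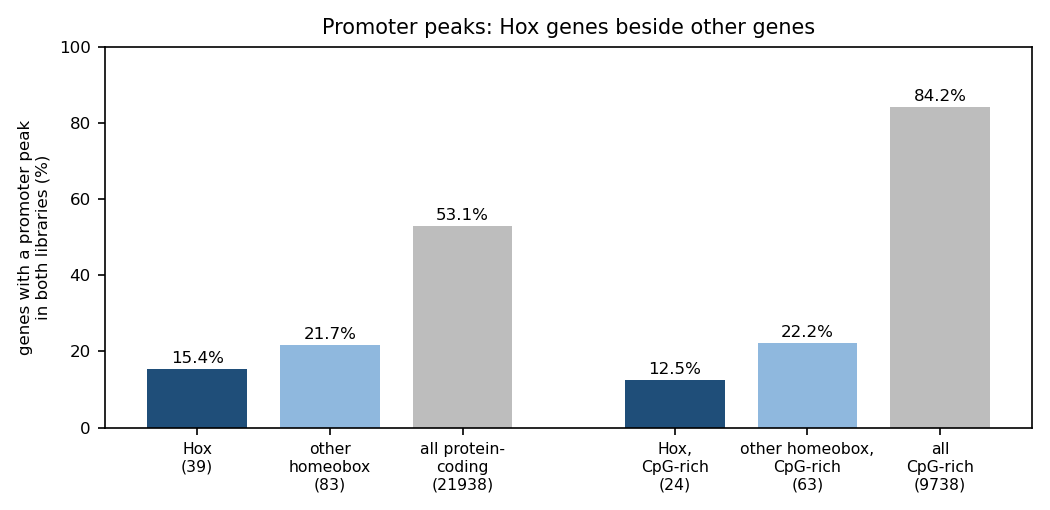
Share of genes with a promoter peak in the shorter list of both libraries, in percent, with the number of genes under each bar. The left 3 bars count all genes of a class and the right 3 those with a CpG-rich start of the gene record. The Hox bars stand at 15.4% and 12.5%, below those of the chosen list of other homeobox genes at 21.7% and 22.2%.

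Across the 4 windows, each running from the first to the last gene plus 20 kb, replicate 1 had 18 peaks and replicate 2 had 15. All 15 peaks of replicate 2 overlapped a peak of replicate 1, beside 65.7% of all peaks of that library. Of the 18 peaks of replicate 1, 15 overlapped one of replicate 2, which is 83.3% (95% exact binomial interval 58.6 to 96.4, counting error only), beside 93.8% of all its peaks. The 3 peaks in the shorter list of replicate 1 only lay 9811 bases upstream of Hoxa13, 129 bases from the start of the lincRNA Gm53, and 1851 bases upstream of Hoxd12. All 3 were in the longer list of replicate 2. Replicate 1 thus had more peaks in the windows, though its list was the shorter over the whole assembly. The union of the 4 lists held 28 sites, of which 15 were in all 4 lists, 3 in the shorter list of replicate 1 only, and 10 in longer lists only. Of the 15 sites in all lists, 6 lay in promoters, 6 in introns and 3 between genes, by the starts and exons of the basic gene set.

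The clusters differed in how many peaks they held. The Hoxa window of 145 kb (chr6:52135590-52280880) had 8 peaks in replicate 1 and 7 in replicate 2, or 5.16 ± 0.487 per 100 kb (SD, n = 2). The Hoxb window of 214 kb (chr11:96174316-96388256) had 5 and 4, or 2.1 ± 0.331 per 100 kb. The Hoxc window of 156 kb (chr15:102901103-103056852) had 3 and 3, or 1.93 per 100 kb in each library. The Hoxd window of 137 kb (chr2:74648310-74785142) had 2 and 1, or 1.1 ± 0.517 per 100 kb. The assembly as a whole had 1.56 peaks per 100 kb in replicate 1 and 2.23 in replicate 2. In both libraries Hoxa was above its assembly value and Hoxd below it, while Hoxb and Hoxc were above it in replicate 1 and below it in replicate 2. By the longer lists the order for Hoxd turned, with 2.92 and 3.65 per 100 kb, against 2.25 and 3.28 over the assembly. Hoxc was below the assembly in both longer lists, at 1.93 and 2.57.

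**Figure D2:**
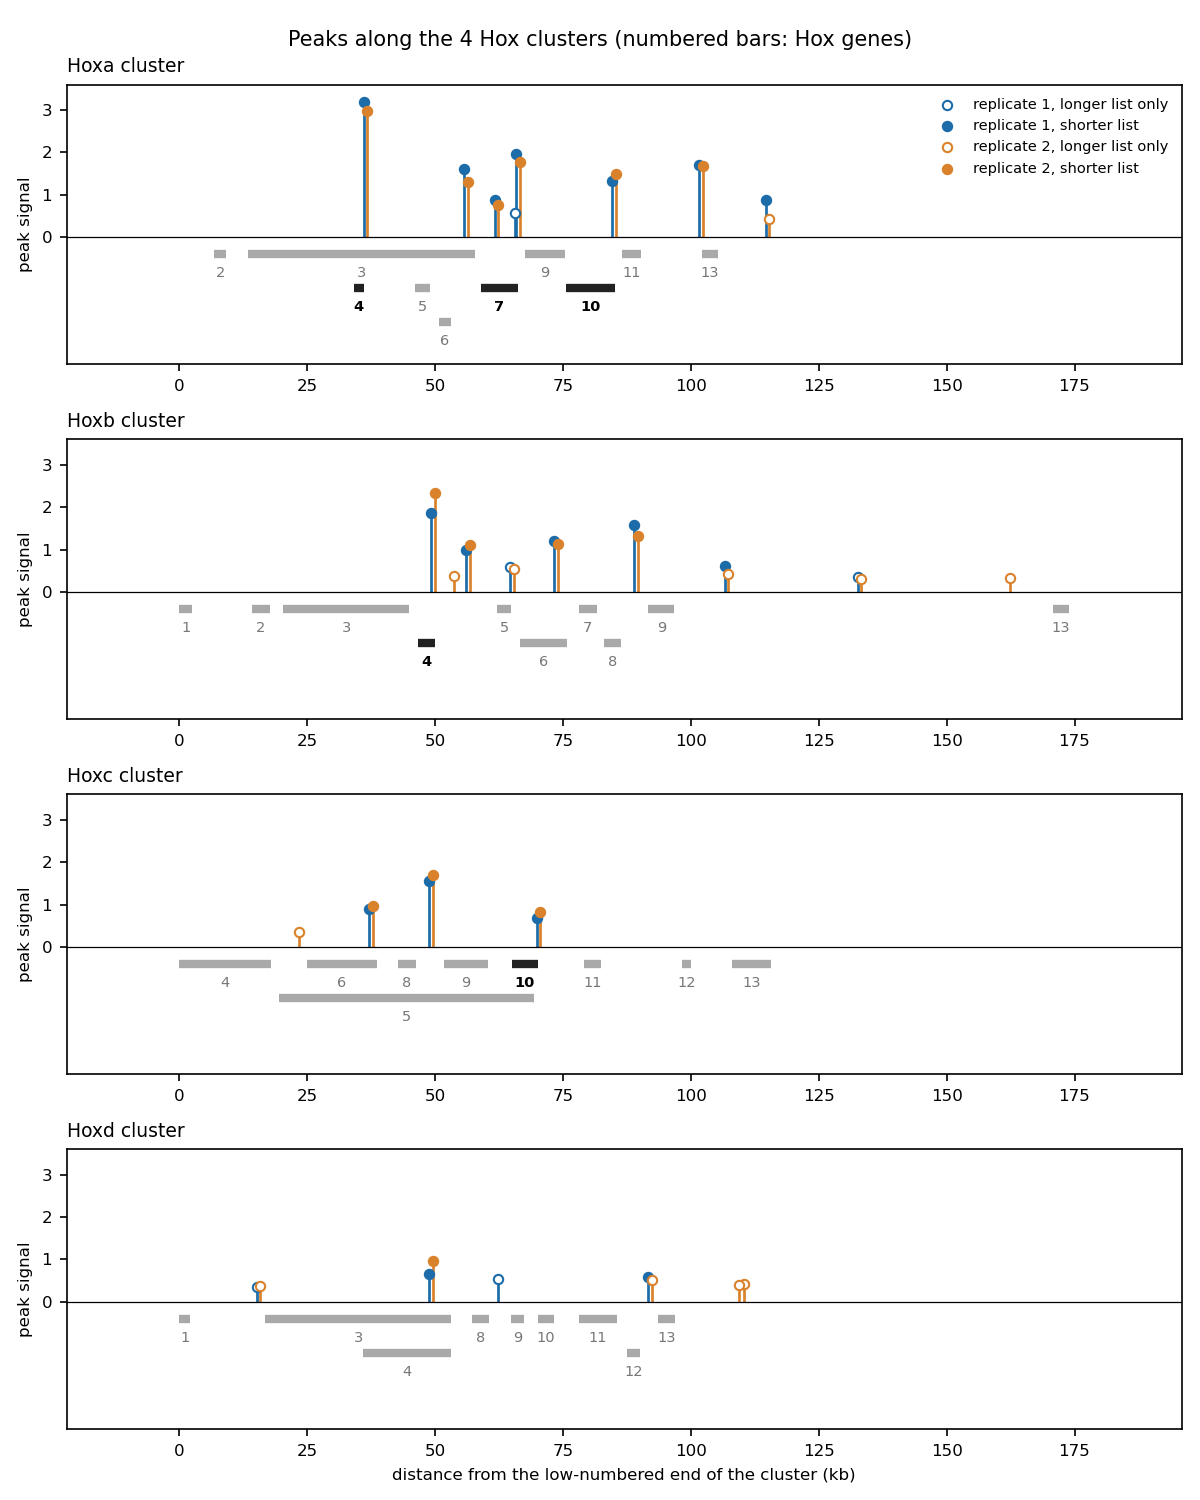
Peaks along the 4 clusters; the horizontal axis is the distance in kb from the low-numbered end, and the height of each stem is the authors' peak signal. Blue is replicate 1 and orange replicate 2, set slightly apart, filled where the peak is in the shorter list and open where it is in the longer list only. Numbered bars are the Hox genes, black where the promoter peak is in both shorter lists, and not every gene and peak is shown. The highest stems, 3.18 and 2.97, stand at Hoxa4.

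In the Hoxa cluster, the highest peak of any cluster lay 208 bases upstream of the start of Hoxa4 (chr6:52191861-52192060, mm10), inside the gene record of Hoxa3. Hoxa4 belongs to the group that patterns the hindbrain and neck. Its signal was 3.18 in replicate 1 and 2.97 in replicate 2, which is 301 and 579 steps, and placed it in the top 24% and 22.4% of all peaks. The site held 1 footprint in replicate 1 and 4 in replicate 2, and the 200 bases are shown on the plus strand with the bases under a footprint of either library in capitals.
Hoxa4 promoter peak: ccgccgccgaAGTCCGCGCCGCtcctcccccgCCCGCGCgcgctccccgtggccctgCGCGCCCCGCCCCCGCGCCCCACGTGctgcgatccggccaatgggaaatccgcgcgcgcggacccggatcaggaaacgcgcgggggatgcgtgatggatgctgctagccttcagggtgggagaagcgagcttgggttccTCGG
The longest protected run, from chr6:52191918 to 52191943 in replicate 2, covered a GC box and the E box beside it. In replicate 1 a footprint of 16 bases covered the GC box and ended directly before the E box. Neither library had a footprint on the CCAAT box.

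Hoxa10, known in blood progenitors and in the uterus, had its peak 303 bases downstream of a start, in an exon (chr6:52240461-52240640). Its signal was 1.33 in replicate 1 and 1.49 in replicate 2.

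Hoxa7, a gene of trunk patterning, had peaks at 2 places. The one 86 bases upstream of its start (chr6:52217481-52217700) was weak, at 0.865 in replicate 1 and 0.769 in replicate 2. The other lay 3120 bases upstream (chr6:52221721-52221940), and its signal was 1.97 in replicate 1 and 1.77 in replicate 2. It spanned the start of the Hoxa7 gene record, 23 bases from the site midpoint, which is an annotated start that is not in the basic gene set. It was counted as intronic only because exons and starts of the basic set were used. In the full gene set it overlaps an annotated untranslated region. Hoxa9, whose protein is known in myeloid progenitors and leukaemia, lay next to it with no promoter peak.

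Other shared Hoxa sites were not at a Hox promoter. One lay in an intron of the long Hoxa3 record, 1384 bases downstream of its start (chr6:52211621-52211840), with signals of 1.6 and 1.3. One lay 3661 bases downstream of the Hoxa13 start (chr6:52257061-52257220), between that gene and Hoxa11, with 1.7 and 1.67.

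In the Hoxb cluster, 1 promoter was accessible in both shorter lists, that of Hoxb4. Forced expression of Hoxb4 is known to expand blood stem cells. Its peak lay 374 bases downstream of the start, in an exon (chr11:96318541-96318740). The signal was 1.86 in replicate 1 and 2.34 in replicate 2, the second highest of the shared sites in replicate 2. It held 5 footprints in replicate 1 and 3 in replicate 2. In replicate 2 a footprint of 19 bases ran across the E box and into the near end of the CCAAT box shown above. In replicate 1 a footprint of 16 bases reached into the far end of the CCAAT box, and one of 8 bases lay between the boxes. Beyond this peak the 69.5 kb that hold Hoxb1, Hoxb2 and Hoxb3 had no peak in the longer list of either library.

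The other shared Hoxb sites lay between genes or in an intron. The site between Hoxb9 and Hoxb8, 2924 bases upstream of Hoxb8, had a signal of 1.58 in replicate 1 and 1.33 in replicate 2. It is shown whole, on the plus strand (chr11:96278901-96279060), because its footprint covered the letters AGNTGGC almost alike in both libraries, with 32 bases in replicate 1 and 26 in replicate 2.
Hoxb9 to Hoxb8 peak: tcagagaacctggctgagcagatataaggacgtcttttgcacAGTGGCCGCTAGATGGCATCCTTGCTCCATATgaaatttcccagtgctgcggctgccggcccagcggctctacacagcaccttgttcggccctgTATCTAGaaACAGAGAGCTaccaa
The Hoxb6 intron site (chr11:96294601-96294800) had 1.2 and 1.13. The site between Hoxb5 and Hoxb4, 6536 bases upstream of Hoxb4 (chr11:96311621-96311840), had 1 and 1.12. Hoxb13, which acts at the tail end and lies apart from the rest of the cluster, had its nearest peak of the shorter lists 67422 bases away in replicate 1 and 48532 bases away in replicate 2.

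In the Hoxc cluster, the only promoter peak in both shorter lists was that of Hoxc10, a gene of lumbar spinal cord and hindlimb patterning. It lay 185 bases upstream of the start (chr15:102966521-102966700). With 0.675 in replicate 1 and 0.825 in replicate 2, it had the lowest summed signal of the 15 shared sites. The highest Hoxc peak lay between Hoxc9 and Hoxc8, 2996 bases upstream of Hoxc8, a gene of the brachial spinal cord. It lay inside the long gene record of Hoxc5 and was counted as intronic. Its signal was 1.55 in replicate 1 and 1.69 in replicate 2. It is shown on the plus strand (chr15:102987521-102987700), with footprints in capitals.
Hoxc9 to Hoxc8 peak: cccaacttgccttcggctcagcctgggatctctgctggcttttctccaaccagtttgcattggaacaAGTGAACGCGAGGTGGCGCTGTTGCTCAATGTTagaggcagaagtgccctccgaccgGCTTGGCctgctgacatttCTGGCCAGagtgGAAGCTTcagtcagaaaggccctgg
The footprint on AGNTGGC was 29 bases long in replicate 1 and 33 in replicate 2, and the 3 shorter ones were found in replicate 2 only. The third Hoxc site (chr15:102999221-102999440) lay inside the Hoxc6 record, 1074 bases from a further annotated start of Hoxc6 that is not in the basic gene set, with 0.886 and 0.964. The 65.4 kb with Hoxc11, Hoxc12 and Hoxc13 had no peak in either list of either library.

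In the Hoxd cluster, no gene had a promoter peak. The single site shared by the shorter lists (chr2:74715861-74716060) lay in an intron of Hoxd3 and Hoxd4 and 35 bases from the start of the antisense RNA Hoxd3os1. Its signal was 0.665 in replicate 1 and 0.964 in replicate 2, below the median of all peaks in both. Evx2, the even-skipped homologue beside Hoxd13, had no promoter peak, though 2 weak peaks in the longer list of replicate 2 lay in its exons, with 0.425 and 0.41.

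**Figure D3:**
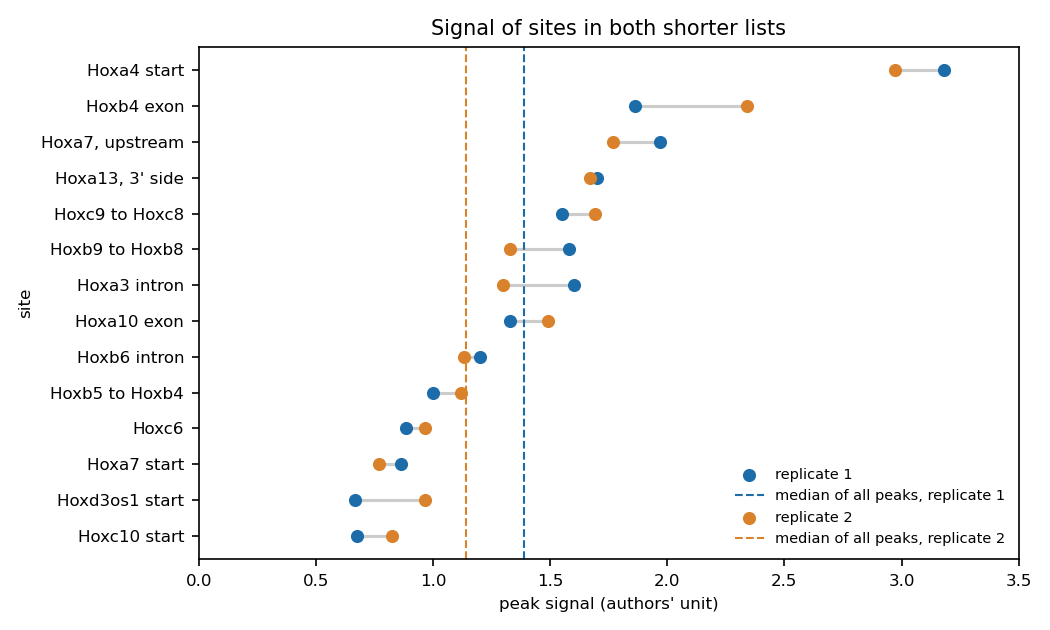
Authors' peak signal of sites found in both shorter lists, not all of which are shown, from the highest to the lowest sum; each point is 1 library and the dashed lines are the medians of all peaks, 1.39 in replicate 1 and 1.14 in replicate 2. The Hoxa4 start stands apart from the others in both libraries.

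The shared sites were of ordinary strength. Of the peaks in the windows, 7 of 18 in replicate 1 and 9 of 15 in replicate 2 were above the median of their library. The ratio of the signal in replicate 1 to that in replicate 2 ran from 0.69 to 1.23 over the 15 sites, with a median of 0.919, beside a median of 0.823 over all peaks shared by the libraries. The site sequences had a median GC content of 60.6%, with a range of 45.6% to 75%.

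The 15 shared sites divided by sequence without overlap. The letters AGNTGGC were in 8 of them, the E box in 4 others, and 3 held neither: the Hoxa3 intron, the Hoxc6 and the Hoxd3os1 sites. By starts of the basic gene set, all 4 E box sites were promoter peaks, and of the 8 AGNTGGC sites 2 were, those of Hoxa10 and Hoxc10. The Hoxa7 upstream site, also with AGNTGGC, lay at a start outside that set. AGNTGGC, the E box and the CCAAT box were all chosen after the peak sequences had been seen, so their shares below describe these sites and support nothing. In the central 150 bases, AGNTGGC was in 8 of 18 cluster peaks of replicate 1 (44.4%) and 7 of 15 of replicate 2 (46.7%), beside 18.4% and 17.5% of all peaks. Of those matches, 9 of 10 in replicate 1 and 7 of 9 in replicate 2 overlapped a footprint by at least 1 base. The share was 46.6% and 47.5% of the matches in all peaks. At 7 of the 8 sites both libraries had a footprint that overlapped these letters. The exception was the site between Hoxb5 and Hoxb4. There the letters lay outside the shorter-list peak of replicate 1 and at the very end of that of replicate 2. At Hoxc10 the overlap was partial: footprints of replicate 2 touched only the first and last letter, and that of replicate 1 covered only the first letters. The consensus of 12 letters listed for CTCF was in no cluster peak, beside 8.49% of all peaks of replicate 1 and 6.19% of replicate 2. Its relaxed form was in 4 of 18 (22.2%) and 3 of 15 (20%), near the 17.5% and 13.4% of all peaks. These matches share their letters with AGNTGGC matches. They lie at the Hoxa7 upstream, Hoxa10 and Hoxb9 to Hoxb8 sites and, in replicate 1 only, at the site upstream of Hoxd12.

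The E box CACGTG, recognised by USF and MYC family factors, was in the centre of 4 cluster peaks of each library, 22.2% in replicate 1 and 26.7% in replicate 2, beside 5.01% and 4.88% of all peaks. CCAAT, recognised by NF-Y, was in 9 of 18 (50%) and 8 of 15 (53.3%), beside 18.6% and 17% of all peaks. At each of the 4 E box sites, those of Hoxa4, Hoxa7 and Hoxb4 among them, a CCAAT box started within 30 bases of the E box. The 2 boxes were 11 bases apart at Hoxa4, 22 at Hoxa7 and 10 at Hoxb4. The pair and its reach were taken from these same sites. It was in 0.478% of all peaks of replicate 1 and 0.417% of replicate 2, or 203 of 42454 and 253 of 60683. Of the 4 E boxes, 3 overlapped a footprint in 1 library and 0 in both. CCAAT was in 8 of the 15 shared sites and overlapped a footprint in both libraries at 1 of them, Hoxb4. There the footprints covered opposite ends of the box, with no base of it covered in both libraries. At Hoxa7 neither box had a footprint in either library. USF proteins and NF-Y are known from human cells to bind the HOXB4 promoter. A match is a description of letters and does not show that a factor was bound.

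Most other motifs of the planned list were absent from the centres of the cluster peaks. With 18 peaks in replicate 1 and 15 in replicate 2, and low shares among all peaks, these absences are not read as a trait of the windows. The letters searched for PU.1 (GAGGAAGT), RUNX (TGTGGTTT), GATA-family factors (AGATAAG), EBF (CCCNNGGGA), HOX-PBX (TGATTNAT) and NRF1 (GCGCATGCG), on both strands, and the DR5 retinoic acid response element were in the central 150 bases of no cluster peak of either library. Outside the central bases, the shared Hoxa7 upstream peak held EBF letters. The match at chr6:52221900-52221908 lay inside both shorter-list peaks and overlapped a footprint in both libraries, only in part in replicate 1. The one match to the PU.1 letters was in a weak peak of the longer list of replicate 2, 11748 bases downstream of the Hoxb13 start, with a signal of 0.328. The largest shares of all peaks among these were 4.8% in replicate 1, for EBF, and 5.47% in replicate 2, for PU.1. The GC box GGGCGG of SP and KLF factors was in 6 of 18 and 5 of 15 cluster peaks, 33.3% in each, beside 28.2% and 23.2% of all peaks. TCAAGGTCA, letters that orphan nuclear receptors recognise, occurred at the Hoxa13 3′ side, in 2 copies. In the central 150 bases it was in 1 of 18 and 1 of 15 cluster peaks, beside 0.139% and 0.198% of all peaks, and it too was chosen after the sequences had been seen. Both copies are shown on the plus strand with these letters in capitals.
First copy: gtcaaaagTCAAGGTCAcaaattgtctttt
Second copy: ttttttcgTCAAGGTCAaggtttaaggcct

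Most footprints of the windows lay inside peaks, as did most footprints over the whole assembly. The windows held 40 footprints in replicate 1 and 60 in replicate 2, 37 and 46 of them inside a peak of the same library. Those shares were 92.5% and 76.7%, against 78.7% and 69.8% of all footprints. By cluster, Hoxa had 19 and 26, Hoxb 14 and 15, Hoxc 4 and 12, and Hoxd 3 and 7. Of the 40 of replicate 1, 22 overlapped one of replicate 2 by at least 50% of the shorter, which was 55% of them, against 63.7% of all its footprints. Of the 60 of replicate 2, 21 did, or 35%, against 32.6% of all its footprints.

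Bases at an FDR of at most 0.001 covered 3.53 kb of the windows in replicate 1 and 3.71 kb in replicate 2. That was 0.541% and 0.569% of their length, against 0.51% and 0.701% of the assembly. Hoxa had 1.21% and 1.16%, above the assembly in both libraries. Hoxb had 0.48% and 0.488%, Hoxc 0.365% and 0.486%, and Hoxd 0.129% and 0.162%, all below it in both libraries.

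**Figure D4:**
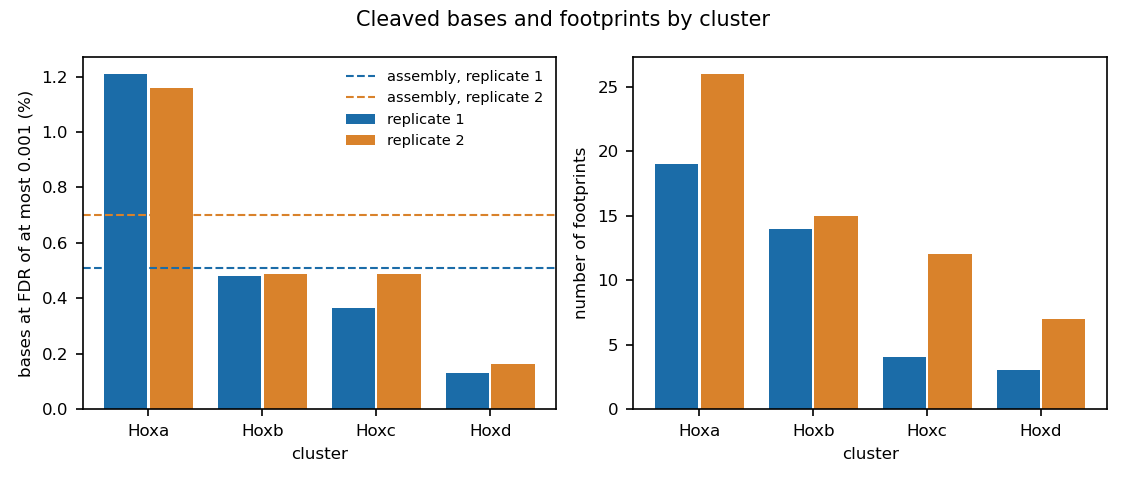
Left, percent of the bases of each cluster window at an FDR of at most 0.001 in the cut rate track, with the assembly as dashed lines; right, number of footprints per window. Blue is replicate 1 and orange replicate 2. Hoxa is highest and Hoxd lowest in both panels and both libraries.

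Other genes of the windows, most of them noncoding, were mostly without a peak at their start. Of 53 such genes, which include 4 protein-coding records, 4 had a promoter peak in both shorter lists, among them 9530018H14Rik and Hoxd3os1. The share over all noncoding genes was not computed, so these counts are not read as a trait of the windows. Gm53 had one in replicate 1 only, and Haglr in longer lists only. Hottip, which lies upstream of Hoxa13, and Hotair, in Hoxc, had none. None of the 7 microRNA genes had one. The nearest to a peak was Mir10a, 1476 bases from a peak in each library and close to Hoxb4.

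Among lists of Hox regulators, promoters of the Trithorax, Polycomb, and CTCF and cohesin lists were mostly accessible. Their shares were near or above that of CpG-rich starts in general (84.2%). Of the Trithorax side, 10 of 10 promoters held a peak in each library, among them Kmt2a, the MLL methyltransferase, and its partners Men1 and Psip1, and 8 of the 10 starts were CpG-rich. Of the Polycomb side 13 of 14 did, among them Ezh2, Suz12 and Bmi1, and Pcgf2 had one in replicate 2 only; 11 of the 14 were CpG-rich. All 8 genes of the CTCF and cohesin list did, 7 of them CpG-rich. Of the TALE cofactors, which bind DNA together with Hox proteins, 6 of 9 did, among them Pbx2, Meis1 and Pknox1. Their CpG-rich starts numbered 5, and 3 of these (60%) had a peak in both libraries. Meis2 and Meis3 had one in replicate 2 only, and Pknox2 in neither. None of the 6 Caudal and ParaHox genes, Cdx1, Cdx2, Cdx4, Gsx1, Gsx2 and Pdx1, had one in any list, though 4 of the 6 starts were CpG-rich.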

How the data were processed

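DNase-seq of 2 spleen libraries was analysed from deposited peak lists, footprints and cut rate tracks on mm10. Per the file headers and each library's deposited readme, the peaks and cut rates come from that library's alignments, footprints from the alignments and the cut rate track, and replicates were not pooled. The aligner and peak caller were not given in the sources used here. Peak signal is the authors' own, and the cut rate track holds the authors' FDR, a q-value for each run of bases, listed under 0.05. Footprints were deposited at 1 constant threshold. Genes were from GENCODE vM21 basic, and sequences from GRCm38.p6, the assembly of mm10, credited to RefSeq. Overlaps and motif searches, on both strands, were computed in Python 3.11.15 with pandas 2.3.3 and pysam 0.24.0 and tested on simulated data. A peak belonged to a window by its midpoint, and 1 shared base made an overlap. A site is the union of overlapping peaks of the 4 lists. Values are given per library, with no test, since there is 1 group. Genes were named by a rule: members with a promoter peak or nearest to each cluster's strongest peak with values, and others by name. The members and lists were chosen with earlier results of these data known. Some items are not reported here.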

Additional observations from a re-analysis of the deposited data

How the results depend on the processing

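The number of Hox promoters accessible in both libraries stayed between 6 and 7 under the longer list, windows of 0.5 and 2 kb, the start of the gene record only and equal numbers of peaks, and was 6 without either library. With 2 kb the gene added was Hoxa3. With the record start it was Hoxc5, whose record starts within 1 kb of the Hoxc10 promoter peak. That peak was then counted for both genes. With the strongest 50% of the peaks it was 2, Hoxa4 and Hoxb4. Peaks per 100 kb moved by more than the spread between libraries in several settings. In Hoxa they were 5.85 in the longer list, 6.65 with no flank, 4.14 with 50 kb flanks and 3.44 in the strongest 50%; in Hoxb 3.74, 2.59 and, in the strongest 50%, 0.935; in Hoxc 2.25, 2.59, 1.39 and 0.642; in Hoxd 3.29 in the longer list and 0 in the strongest 50%. Without 1 library they ran from 4.82 to 5.51 in Hoxa, 1.87 to 2.34 in Hoxb, 1.93 to 1.93 in Hoxc and 0.731 to 1.46 in Hoxd. Kb of bases at the FDR threshold were 4.39 at 0.01 and 5.55 at 0.05. Matches found in peaks of both libraries were 0 with the full CTCF consensus and 3 with its relaxed form. With AGNTGGC, which is not that consensus and was added after seeing the data, they were 9. The share of shared peaks ran from 83.3% to 91.3% over the settings tried. The mean number of footprints ran from 41.5 to 50, and was 40 in replicate 1 alone and 60 in replicate 2 alone. No paired analysis was possible because there is only 1 group. With 2 libraries and no read totals, an absent peak means only that none was listed at these depths.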
